A study of Arabidopsis thaliana with 38 samples.

Results

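The WRKY transcription factors of Arabidopsis thaliana were followed through 4 histone H3 genotypes, in the 46 WRKY loci given by a fixed list of locus identifiers out of 27416 genes counted. The list follows the gene family, and it was drawn up with earlier results of these data known. The gene table of RefSeq for the assembly TAIR10.1 held all 46 loci, 44 of them under the WRKY symbol used here, with WRKY1 and WRKY44 under the synonyms ZAP1 and TTG2. It named 26 further WRKY loci of 72 in all, which are taken up near the end. In the H3.3 pair 43 of the 46 listed loci had enough counts for a test, against 11 of the 26 others.

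WRKY proteins are plant transcription factors named after the conserved amino acids of their DNA-binding domain, which recognises the W box, a promoter element with the core TTGAC. Group I proteins carry a pair of these domains, while groups II and III carry a single domain and differ in its zinc finger and in the sequence around it. Many family members are switched on within minutes of pathogen contact or wounding through a mitogen-activated protein kinase cascade, and others act in salicylic acid signalling, leaf senescence, phosphate supply, and trichome and seed coat formation. The division into groups is textbook knowledge and was not derived from these data.

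The study asked how replacing serine 28 of histone H3 by alanine (S28A) affects gene silencing by methylation of the neighbouring lysine 27. Poly(A)-selected RNA was sequenced from 4 genotypes with 2 libraries each, namely H3.1 with its mutant H3.1S28A and H3.3 with its mutant H3.3S28A, and each S28A genotype was compared with the genotype of the unmutated histone, in a count table of its own. H3.1 is the form of the histone deposited at replication and H3.3 the form deposited independently of it. The labels name 2-week-old seedlings as the source, whereas their extraction text names closed buds, and the growth text covers long and short days without assigning these libraries to either. How the lines were made, how many lines stand for a genotype and whether they retain their own H3 genes the sources used here do not give. The 2 libraries of a genotype are labelled as separate samples with no mention of separate plantings, so p-values measure only the spread between these samples.

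Libraries held 12865999 to 24449528 counts on genes, and the 46 WRKY genes together took 4406 to 7733 of them, or 287 to 372 CPM (counts scaled to a library total of 1e6). A gene with no count could have had up to 0.123 to 0.233 CPM in a library, the level of 3 counts. Leaf photosynthesis markers were abundant in all 8 libraries, at a summed 53302 to 64962 CPM over 4 genes. Singly they did not move together. In H3.3S28A, RCA was called lower (log2 fold change −0.83) and LHCB1.3 higher (0.21), and LHCB2.1 was called higher in H3.1S28A (0.45). The 4 anther markers summed to 0.136 to 1.16 CPM and the 6 root markers to 0.853 to 2.79 CPM. The 4 floral organ markers AP3, PI, AG and SEP3 summed to 2.28 and 2.38 CPM in H3.1 against 49.9 and 7.57 CPM in H3.1S28A, and to 0.408 and 0.423 CPM in H3.3 against 167 and 160 CPM in H3.3S28A, and AP3 had no count in H3.3. All 4 were called higher in H3.3S28A, and AG and SEP3 were called higher in H3.1S28A. With at most 6 counts in an H3.3 library, all 4 passed the count filter there only through H3.3S28A and could hardly have been called lower. SEP3 made up most of the sums, with 133 and 124 CPM in H3.3S28A and 43.2 and 5.13 CPM in H3.1S28A. The sums thus stood higher in the S28A genotypes, most in the H3.3 pair, and the part of these markers in the WRKY results was not tested. In such bulk samples a change in the number of cells of a type and a change in RNA per cell cannot be told apart. H3.3S28A replicate 2 also had 0.858% of its counts on chloroplast genes, against at most 0.143% in the other libraries.

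In H3.3S28A, 17 of the 43 WRKY genes tested were higher than in H3.3, 8 were lower and 18 were not called (edgeR's quasi-likelihood test, Benjamini-Hochberg adjusted p under 0.05). Those called made up 58.1% of the WRKY genes tested, against 58.4% of all 19729 genes tested, of which 28.8% were higher and 29.7% lower. The share called is thus the background of this pair and no result about the family. The log2 fold change was below 0 for 17 of the 43, where 49.6% of all genes tested were below 0, and its median was 0.38 over the WRKY genes and 0.01 over all genes. Both H3.3S28A libraries lay above both H3.3 libraries for 24 WRKY genes and below them for 11, where 39.8% and 39.9% of all genes did so. WRKY8, WRKY30, WRKY31, WRKY38, WRKY51 and WRKY75, all called higher, had at most 9 counts in an H3.3 library. They passed the count filter only through H3.3S28A, as did WRKY35, which was not called. Such genes could hardly have been called lower, so the counts by direction and the median are no evidence that the family rose.

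By group the calls were as follows, where 28.8% of all genes tested were higher and 29.7% lower. In group I, 6 of 10 genes were lower and 1 was higher. Of the 6, WRKY3 and WRKY20 were not called once the trend of fold change with gene span was removed, and WRKY33 leaned on H3.3 replicate 2. Over groups II and III, the higher and lower calls numbered 2 and 1 of 3 in IIa, 3 and 0 of 3 in IIb, 4 and 0 of 8 in IIc, 2 and 0 of 6 in IId, 1 and 0 of 6 in IIe, and 4 and 1 of 7 in III. Summed over its members, group I stood at 158 and 164 CPM in H3.3 and at 107 and 104 CPM in H3.3S28A, while group IIb stood at 7.34 and 5.50 CPM in H3.3 and at 16.5 and 17.8 CPM in H3.3S28A. These counts describe the groups and were not set against chance. The higher calls of IIb, IIc and III include the genes that passed the count filter only through H3.3S28A.

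**Figure D1:**
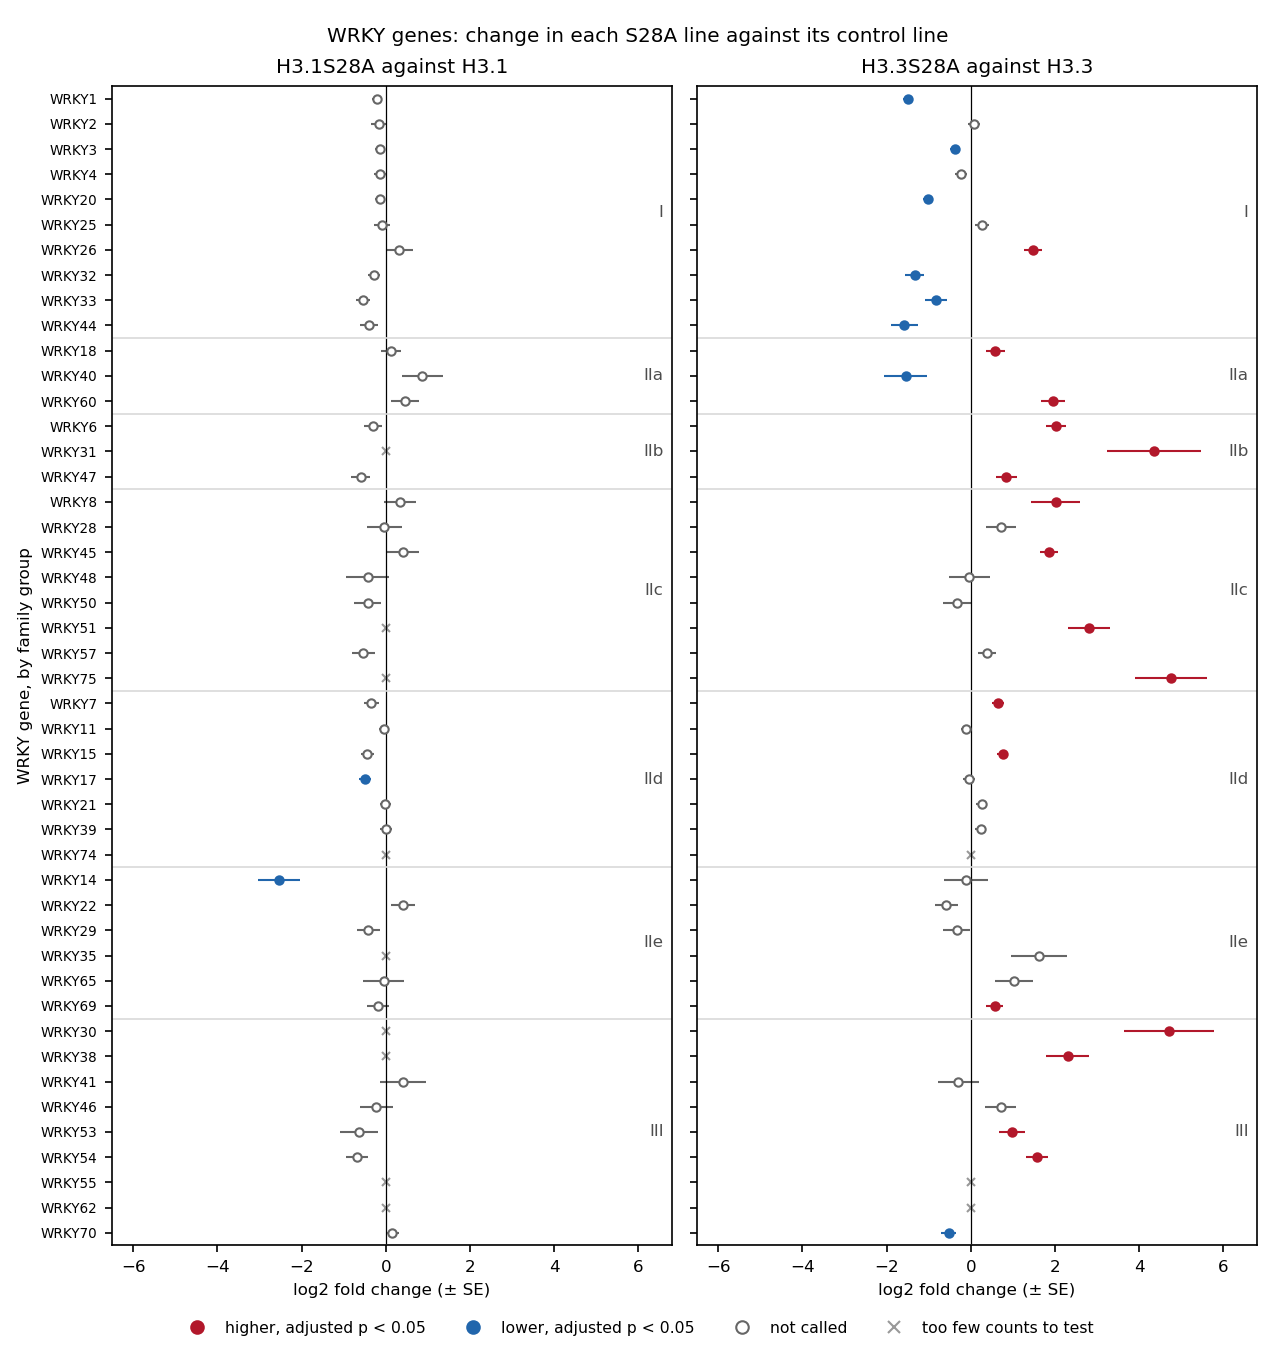
Log2 fold change with its standard error (horizontal axis) of each WRKY gene, ordered by family group, in H3.1S28A against H3.1 (left) and H3.3S28A against H3.3 (right), with filled points for adjusted p under 0.05 and crosses for genes with too few counts. In the right panel 17 genes are higher and 8 lower, 6 of the latter in group I, and in the left panel 2 are lower and none is higher.

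Group I is described first. WRKY1 (AT2G04880), which encodes a zinc-dependent DNA-binding activator, measured 29.6 and 31.2 CPM in H3.3 and 10.9 and 10.6 CPM in H3.3S28A. Both mutant libraries thus lay at about the same low level, far under both others (log2 fold change −1.50, SE 0.12, adjusted p = 1.8e-06). WRKY32 (AT4G30935) measured 9.24 and 7.74 CPM against 3.45 and 3.25 CPM, again with no overlap (log2 fold change −1.33, SE 0.22, adjusted p = 3.4e-04). WRKY44 (AT2G37260), known as TTG2 for its part in trichome outgrowth and seed coat mucilage and tannin, measured 4.79 and 5.49 CPM against 2.15 and 1.19 CPM (log2 fold change −1.58, SE 0.32, adjusted p = 0.0015). These 3 genes stayed called under every alternative tried.

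WRKY20 (AT4G26640) also fell, from 27.4 and 26.1 CPM to 13.8 and 12.8 CPM (log2 fold change −1.01, SE 0.12, adjusted p = 3.1e-05), without overlap. Fold changes in the H3.3 pair declined with gene span over all genes (Spearman rho −0.52 over 19525 genes, which are not independent), and WRKY20 is the longest WRKY gene of the list at 4880 bp, against a median of 2131 bp over the list. With that trend removed its log2 fold change was −0.26 and it was no longer called (adjusted p = 0.0794). WRKY3 (AT2G03340), the group I gene with the most counts, which acts in resistance to necrotrophic pathogens, measured 32.8 and 30.3 CPM against 24.7 and 23.7 CPM (log2 fold change −0.38, adjusted p = 0.011). Its call was lost with the span trend removed (−0.21, adjusted p = 0.119) and without H3.3 replicate 1 (adjusted p = 0.0660). WRKY2, WRKY4 and WRKY25 were not called, with log2 fold changes of 0.08, −0.24 and 0.27.

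WRKY26 (AT5G07100) was the exception of group I. This gene, which acts with WRKY25 and WRKY33 in heat tolerance, rose from 3.44 and 3.33 CPM to 9.0 and 9.9 CPM (log2 fold change 1.48, SE 0.21, adjusted p = 1.1e-04). Its replicates lay close together on both sides, and the call held under every alternative tried.

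**Figure D2:**
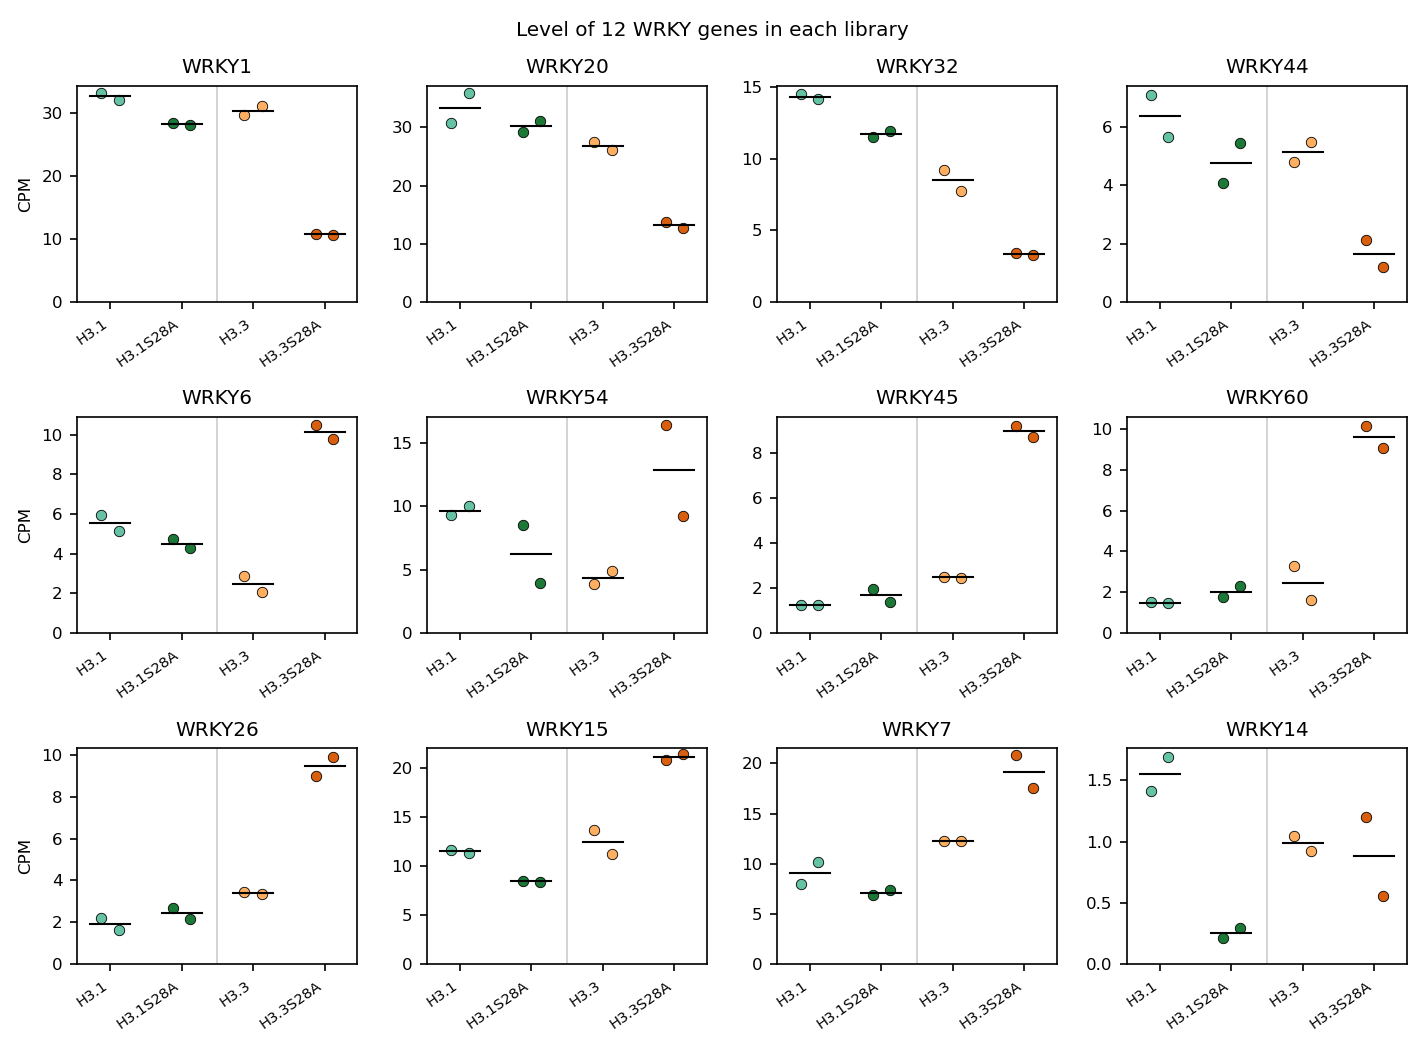
Level of 12 WRKY genes (vertical axis, CPM scaled within each pair of genotypes) in each of the 8 libraries, with 1 point per library and a line at the mean of 2. WRKY1, WRKY20, WRKY32 and WRKY44 sit lowest in H3.3S28A, the next 7 genes sit highest there except that WRKY54 overlaps with H3.1, and WRKY14 sits lowest in H3.1S28A.

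All 3 listed genes of group IIb were called higher, where 28.8% of all genes tested were. WRKY6 (AT1G62300), a regulator of senescence and of the phosphate exporter gene PHO1, measured 2.90 and 2.05 CPM in H3.3 and 10.5 and 9.76 CPM in H3.3S28A (log2 fold change 2.03, SE 0.23, adjusted p = 2.9e-05). WRKY47 (AT4G01720) measured 4.24 and 3.28 CPM against 5.81 and 7.85 CPM (log2 fold change 0.85, SE 0.25, adjusted p = 0.013), a call that was lost without H3.3 replicate 2 (adjusted p = 0.117) and without H3.3S28A replicate 2 (adjusted p = 0.0617). WRKY31 (AT4G22070) was close to the detection limit, with 1 and 0 counts in H3.3 against 14 and 7 in H3.3S28A, a depth-scaled ratio of 24.8 with a 95% counting interval of 3.99 to 1027. It was called (adjusted p = 0.0064) but not without H3.3 replicate 2 (adjusted p = 0.0614).

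In group IIc, the 4 genes that rose included both members known as activators of phosphate uptake in Arabidopsis. WRKY45 (AT3G01970) measured 2.50 and 2.46 CPM in H3.3 and 9.21 and 8.73 CPM in H3.3S28A (log2 fold change 1.85, SE 0.22, adjusted p = 3.5e-05). WRKY75 (AT5G13080) had 2 and 0 counts in H3.3 against 33 and 17 in H3.3S28A (depth-scaled ratio 29.6, 95% counting interval 7.77 to 251; adjusted p = 6.2e-04). WRKY51 (AT5G64810), which acts in the repression of jasmonate responses, had 9 and 6 counts in H3.3 against 62 and 26 in H3.3S28A (log2 fold change 2.80, SE 0.50, adjusted p = 5.9e-04). None of the 3 overlapped between genotypes, and each stayed called under every alternative tried. WRKY8 (AT5G46350) had 8 and 5 counts against 22 and 20 (log2 fold change 2.02, adjusted p = 0.011), and lost its call without H3.3 replicate 2 (adjusted p = 0.0869) or H3.3S28A replicate 2 (adjusted p = 0.0752). WRKY28, WRKY48, WRKY50 and WRKY57 were not called, with log2 fold changes from −0.32 to 0.72. WRKY57 (AT1G69310), the IIc gene with the most counts, which links drought, auxin and jasmonate responses, measured 4.84 and 5.13 CPM in H3.3 and 7.27 and 5.63 CPM in H3.3S28A.

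Group IIa consists of WRKY18, WRKY40 and WRKY60, which bind each other and act in defence and abscisic acid responses, and its members did not move together. WRKY60 (AT2G25000) measured 3.295 and 1.64 CPM in H3.3 and 10.2 and 9.04 CPM in H3.3S28A (log2 fold change 1.96, SE 0.29, adjusted p = 1.8e-04). WRKY18 (AT4G31800) was barely called at 5.54 and 4.82 CPM against 8.84 and 6.59 CPM (log2 fold change 0.58, SE 0.22, adjusted p = 0.041). Its call was lost under 6 of the alternatives tried, among them DESeq2 (adjusted p = 0.103) and the removal of the span trend (adjusted p = 0.0567), and without H3.3 replicate 1 (0.0926), H3.3 replicate 2 (0.208) or H3.3S28A replicate 1 (0.291). WRKY40 (AT1G80840) measured 2.45 and 7.90 CPM in H3.3 and 1.26 and 2.38 CPM in H3.3S28A, so that the genotypes were separated by a narrow margin and the replicates of H3.3 were far apart (log2 fold change −1.55, SE 0.51, adjusted p = 0.023).

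WRKY40 shared this pattern with WRKY33 and WRKY70. WRKY33 (AT2G38470), the activator of camalexin synthesis needed against Botrytis, measured 9.14 and 17.1 CPM in H3.3 and 8.01 and 6.59 CPM in H3.3S28A (log2 fold change −0.83, SE 0.26, adjusted p = 0.018). WRKY70 (AT3G56400), which sits at the junction of salicylic acid and jasmonate signalling and has the most counts in group III, measured 16.6 and 25.3 CPM against 15.4 and 13.6 CPM (log2 fold change −0.53, SE 0.18, adjusted p = 0.029). H3.3 replicate 2 exceeded H3.3 replicate 1 by 3.23-fold for WRKY40, 1.87-fold for WRKY33 and 1.52-fold for WRKY70. Without that library all 3 calls were lost, with log2 fold changes of −0.48 for WRKY40 (adjusted p = 0.475), −0.34 for WRKY33 (adjusted p = 0.278) and −0.22 for WRKY70 (adjusted p = 0.340). In the same library 17 of 19 listed early stress genes were higher than in H3.3 replicate 1, with a summed 325 against 182 CPM. The H3.3S28A libraries had 183 and 161 CPM. That list was chosen with earlier results of these data known, and the same share over all genes was not taken. Across the WRKY genes as a whole, 21 of 46 were higher in H3.3 replicate 2 than in replicate 1. The part of this difference between libraries in the 3 calls was not tested beyond the values without it.

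**Figure D3:**
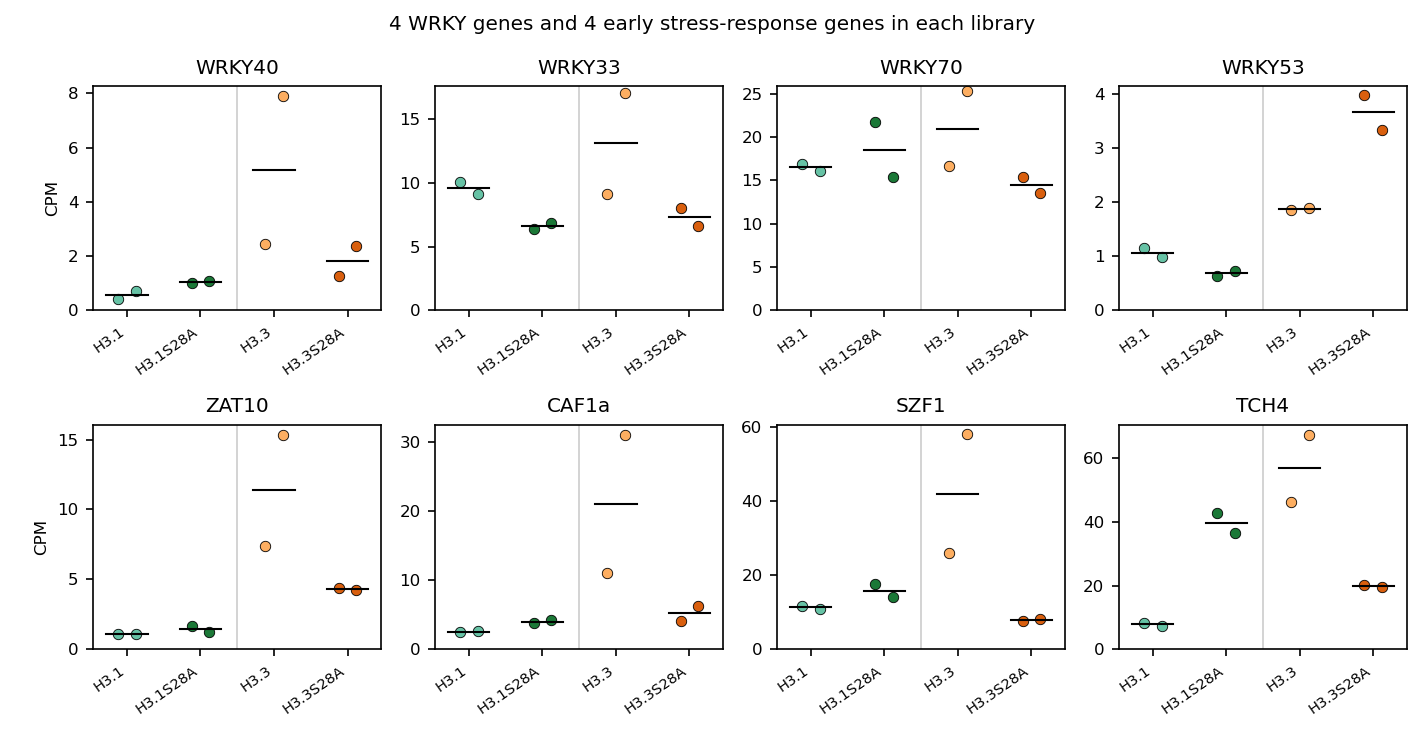
Level of 4 WRKY genes (top row) and 4 early stress genes (bottom row) in each library (vertical axis, CPM scaled within each pair of genotypes), with 1 point per library and a line at the mean of 2. H3.3 replicate 2 stands above H3.3 replicate 1 for WRKY40 (7.90 against 2.45 CPM), WRKY33, WRKY70 and the 4 early stress genes, whereas WRKY53 has 1.85 and 1.90 CPM there.

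The other group III genes called in the H3.3 pair rose. WRKY54 (AT2G40750), a close relative of WRKY70 that acts with it to delay senescence, measured 3.89 and 4.87 CPM in H3.3 and 16.4 and 9.28 CPM in H3.3S28A (log2 fold change 1.57, SE 0.26, adjusted p = 4.2e-04). The relatives thus went in opposite directions in this pair, but the fall of WRKY70 leaned on H3.3 replicate 2. Without that library its log2 fold change was −0.22. WRKY53 (AT4G23810), a promoter of leaf senescence, measured 1.85 and 1.90 CPM against 3.98 and 3.33 CPM (log2 fold change 0.97, SE 0.31, adjusted p = 0.019). Although its replicates agreed closely, its call was lost with DESeq2 (adjusted p = 0.0611), with the span trend removed (0.63, adjusted p = 0.107) and without H3.3 replicate 1 (0.0924), H3.3 replicate 2 (0.0801) or H3.3S28A replicate 1 (0.111). WRKY38 (AT5G22570), a repressor of basal defence, had 7 and 8 counts in H3.3 against 40 and 21 in H3.3S28A (log2 fold change 2.30, SE 0.50, adjusted p = 0.0024). WRKY30 (AT5G24110), induced by oxidative stress, had 1 and 0 counts against 13 and 13 (depth-scaled ratio 30.7, 95% counting interval 5.05 to 1260; adjusted p = 0.0031).

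WRKY41 and WRKY46 of group III were not called, with log2 fold changes of −0.30 and 0.71. WRKY55 and WRKY62 had too few counts for the test. WRKY55 (AT2G40740), the neighbouring locus of WRKY54, had 1 and 1 counts in H3.3 against 10 and 8 in H3.3S28A, a depth-scaled ratio of 10.6 with a 95% counting interval of 2.55 to 94.6. WRKY62 (AT5G01900), the partner of WRKY38 in basal defence, had 2 and 0 counts in H3.3 against 10 and 5 in H3.3S28A, a ratio of 8.87 with an interval of 2.06 to 79.9. For both genes each mutant library thus had more counts than either control library.

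In groups IId and IIe, 33.3% and 16.7% of the 6 genes tested in each were called, against 58.4% of all genes. In IId, whose members bind calmodulin, WRKY7 (AT4G24240) measured 12.3 and 12.3 CPM in H3.3 and 20.8 and 17.5 CPM in H3.3S28A (log2 fold change 0.65, SE 0.13, adjusted p = 0.0017). WRKY15 (AT2G23320), which acts in the response to reactive oxygen and salt, measured 13.7 and 11.2 CPM against 20.8 and 21.3 CPM (log2 fold change 0.76, SE 0.14, adjusted p = 6.4e-04). Both were called under every alternative tried, although removal of the span trend took WRKY15 to 0.37 (adjusted p = 0.0369). WRKY11, WRKY17, WRKY21 and WRKY39 were not called and lay between −0.12 and 0.26, and WRKY74 had too few counts. WRKY11 (AT4G31550), a negative regulator of basal defence and the IId gene with the most counts, measured 22.3 and 21.1 CPM in H3.3 and 19.6 and 20.2 CPM in H3.3S28A. In IIe, WRKY69 (AT3G58710), which has the most counts of that group, measured 4.84 and 6.10 CPM against 7.95 and 8.25 CPM (log2 fold change 0.56, adjusted p = 0.035). The call of WRKY69 was lost with DESeq2 (adjusted p = 0.0972), with the span trend removed (adjusted p = 0.126), and without H3.3 replicate 1 (0.244) or H3.3S28A replicate 2 (0.0508). WRKY22 and WRKY29, downstream of the flagellin kinase cascade, had log2 fold changes of −0.58 and −0.34 and were not called, nor were WRKY35 and WRKY65, at 1.62 and 1.03.

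**Figure D4:**
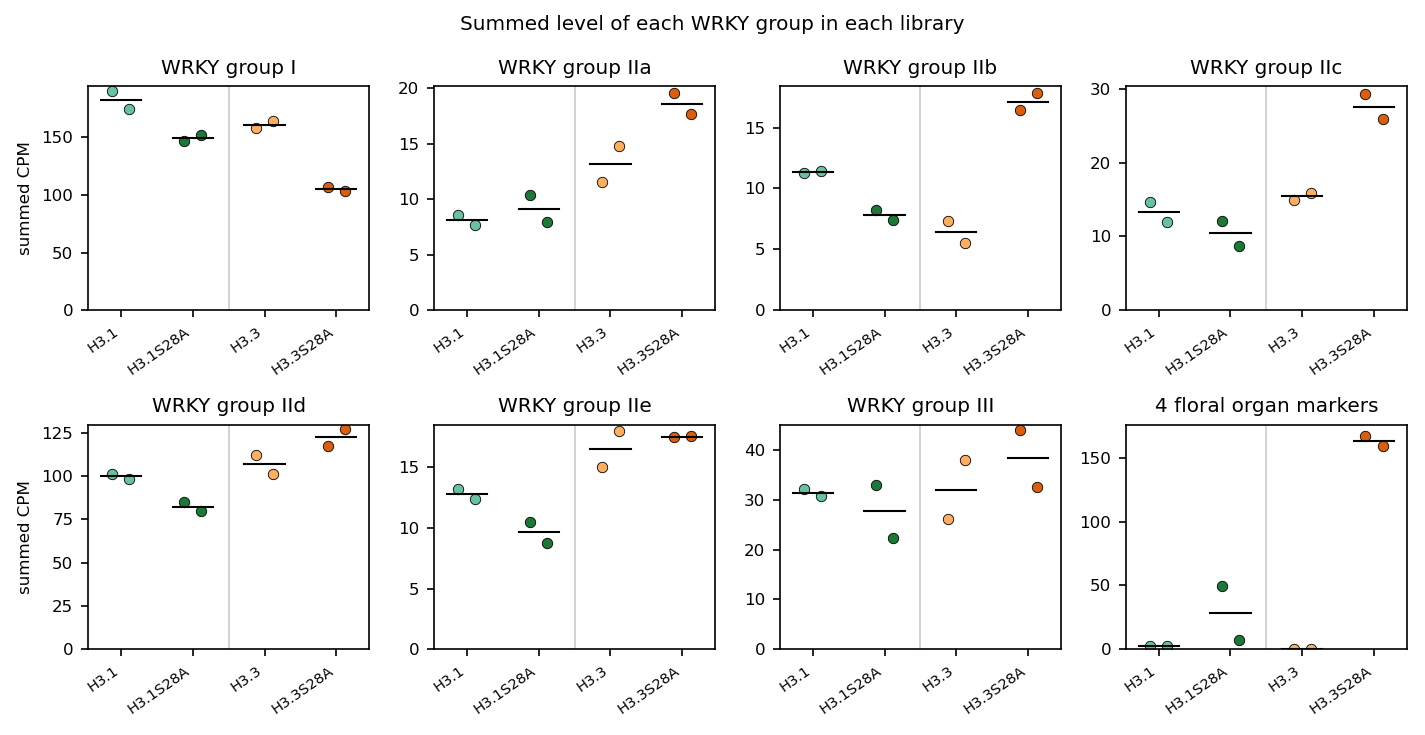
Summed level of the members of each WRKY group and of 4 floral organ markers (vertical axis, CPM of the library total) in each library, with 1 point per library and a line at the mean of 2. Group I is lowest and groups IIa, IIb, IIc and IId are highest in both libraries of H3.3S28A, where the floral organ markers stand at 167 and 160 CPM.

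In H3.1S28A, 2 of the 37 WRKY genes tested were lower than in H3.1, none was higher and 35 were not called. This was 5.41% of the WRKY genes tested, against 13.5% of all 18974 genes tested, of which 8.23% were higher and 5.26% lower. At an unadjusted p under 0.05 there were 6 of the 37 WRKY genes, against 5511 of all 18974 genes tested. DESeq2 called 1 WRKY gene. The log2 fold change was below 0 for 28 of the 37 WRKY genes, where 51.4% of all genes tested were below 0, and its median was −0.15 against −0.01 over all genes. Both H3.1S28A libraries lay below both H3.1 libraries for 15 WRKY genes and above them for 5, where 29.0% and 29.2% of all genes did so.

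WRKY14 (AT1G30650), a group IIe gene, changed most. It passed the count filter in this pair only through H3.1, so it could hardly have been called higher. It had 31 and 38 counts in H3.1, or 1.41 and 1.69 CPM, and 3 and 7 counts in H3.1S28A, or 0.212 and 0.297 CPM (log2 fold change −2.53, SE 0.51, adjusted p = 0.0059). Although the genotypes did not overlap, the gene was not called without H3.1 replicate 2 (adjusted p = 0.0869). In the H3.3 pair WRKY14 measured 1.05 and 0.923 CPM in H3.3 and 1.20 and 0.555 CPM in H3.3S28A, an overlap (log2 fold change −0.11, SE 0.53, adjusted p = 0.87). WRKY17 (AT2G24570), a negative regulator of basal defence alongside WRKY11, measured 15.7 and 17.5 CPM in H3.1 against 12.8 and 10.9 CPM in H3.1S28A (log2 fold change −0.50, SE 0.15, adjusted p = 0.038). Its call was lost with DESeq2 (adjusted p = 0.107) and on leaving out H3.1S28A replicate 2 (0.116) or either H3.1 library (0.0901 and 0.246).

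The further members with large fold changes in the H3.1 pair missed the threshold. WRKY40 measured 0.410 and 0.712 CPM in H3.1 against 0.988 and 1.06 CPM in H3.1S28A (log2 fold change 0.87, adjusted p = 0.267). WRKY54 measured 9.30 and 10.1 CPM against 8.54 and 3.99 CPM (log2 fold change −0.68, adjusted p = 0.108). The H3.1S28A replicates of WRKY54 were far apart, and without H3.1S28A replicate 1 its log2 fold change was −1.28 (adjusted p = 2.3e-06), and it was also called without the count filter (adjusted p = 0.0347). WRKY53 and WRKY47 had log2 fold changes of −0.62 and −0.59, with adjusted p of 0.399 and 0.106. WRKY33 measured 10.1 and 9.16 CPM against 6.35 and 6.87 CPM without overlap and just missed the threshold (log2 fold change −0.54, SE 0.17, adjusted p = 0.0524), which it passed under 3 of the alternatives (0.0382 to 0.0490). WRKY70 measured 16.9 and 16.1 CPM against 21.7 and 15.4 CPM (log2 fold change 0.15, adjusted p = 0.570), an overlap. No WRKY gene was called in both pairs, which says little with only 2 called in the H3.1 pair. Of the 37 tested in both, 15 were called in neither. The matching shares over all genes were not taken, so these counts are no result about the family.

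The effect of S28A on H3.1 was then set against its effect on H3.3 in a fit of all 8 libraries, with the difference taken as the log2 fold change of the H3.1 pair minus that of the H3.3 pair. The difference was called for 18 of 44 WRKY genes tested, 5 positive and 13 negative. The share called was 40.9%, against 39.0% of all 20052 genes tested, of which 24.4% were positive and 14.6% negative, so the share as such is again near the background. The median difference was −0.64 over the WRKY genes and 0.07 over all genes. It includes genes such as WRKY30, WRKY31 and WRKY75, which passed the count filter only through H3.3S28A. Of the 25 WRKY genes called in the H3.3 pair, 16 were also called for the difference and 9 were not, so for those 9 the effects are not shown to differ between the pairs.

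**Figure D5:**
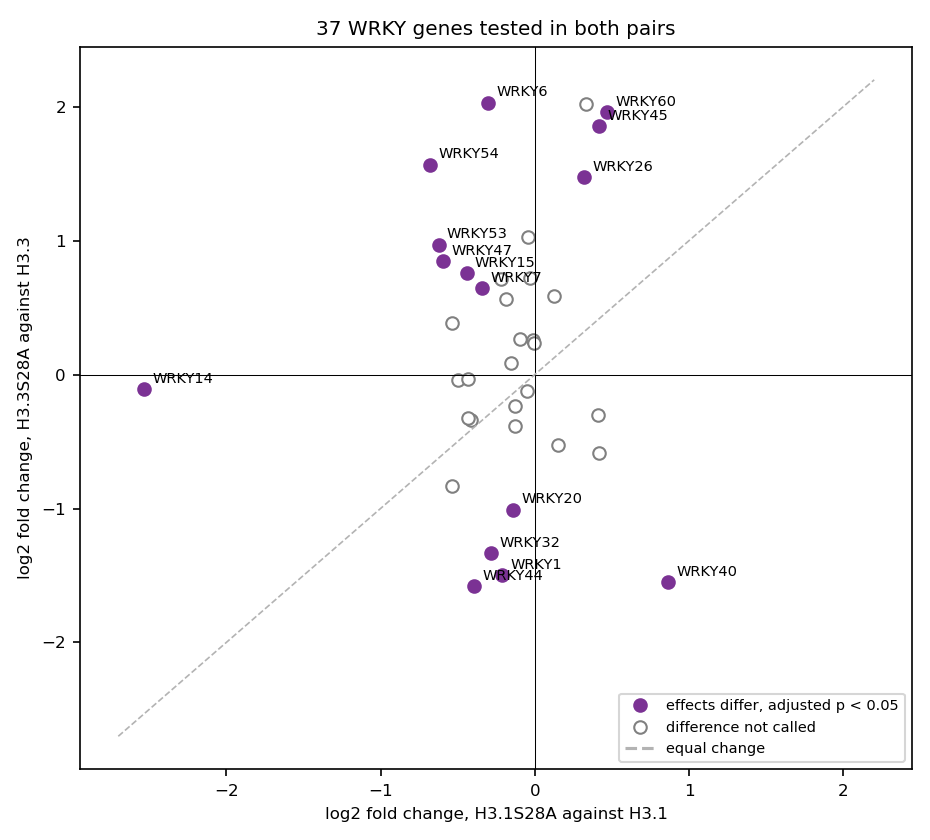
Log2 fold change in H3.3S28A against H3.3 (vertical axis) and in H3.1S28A against H3.1 (horizontal axis) for the 37 WRKY genes tested in both pairs, with filled points where the difference between the effects has adjusted p under 0.05 and a dashed line of equal change. WRKY6 lies at 2.03 and −0.31, and WRKY14 at −0.11 and −2.53.

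A positive difference, with the lower value in the H3.3 pair, was found for the group I genes WRKY1 (1.32, SE 0.14, adjusted p = 1.9e-05), WRKY32 (1.08, adjusted p = 0.0022), WRKY44 (1.20, adjusted p = 0.028) and WRKY20 (0.89, adjusted p = 7.9e-04), and for WRKY40 of group IIa (2.44, SE 0.81, adjusted p = 0.031). In the H3.1 pair WRKY1 measured 33.2 and 32.1 CPM in H3.1 against 28.4 and 28.1 CPM in H3.1S28A, with no call (log2 fold change −0.21, adjusted p = 0.208). WRKY20 lost its call for the difference once the span trend was removed (0.20, adjusted p = 0.344). WRKY40 lost it without H3.3 replicate 2 (1.36, adjusted p = 0.176), and also without H3.1 replicate 1, H3.1S28A replicate 2 or H3.3S28A replicate 1 (adjusted p from 0.0801 to 0.110). WRKY44 lost it with DESeq2 (adjusted p = 0.0551) and without H3.1 replicate 2, H3.1S28A replicate 2, H3.3 replicate 2 or H3.3S28A replicate 2 (adjusted p from 0.0827 to 0.108).

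A negative difference, with the higher value in the H3.3 pair, was clearest for WRKY6 (−2.30, SE 0.31, adjusted p = 8.7e-05), which measured 5.93 and 5.16 CPM in H3.1 against 4.73 and 4.28 CPM in H3.1S28A. It was also called for WRKY15 (−1.17, adjusted p = 4.5e-04), WRKY54 (−2.21, adjusted p = 0.0019), WRKY7 (−0.96, adjusted p = 0.0045) and WRKY47 (−1.41, adjusted p = 0.0062). These 5 genes, with WRKY1 and WRKY32, are the 7 whose difference was called under every alternative tried. For the remaining 8, WRKY26, WRKY45, WRKY51, WRKY53, WRKY60, WRKY75, WRKY14 and WRKY35, the call was lost under at least 1 alternative. WRKY75 lost it under 10 alternatives and kept it under 3 (adjusted p = 0.0713 with a replicate block), and WRKY53 lost it under 8 and kept it under 6. WRKY14 alone owed a negative difference to a call in the H3.1 pair (−2.40, SE 0.75, adjusted p = 0.023), and it was lost without either H3.1 library, without H3.1S28A replicate 1, H3.3 replicate 2 or H3.3S28A replicate 1 (adjusted p from 0.0512 to 0.172). WRKY35 (AT2G34830) of the same group had a difference of −3.49 (adjusted p = 0.030) on 26 and 6 counts in H3.1 against 4 and 3 in H3.1S28A, and on 5 and 7 counts in H3.3 against 13 and 16 in H3.3S28A, and leaving out H3.1 replicate 1, which holds the 26 counts, took it to −2.06 (adjusted p = 0.266). WRKY75 and WRKY51 had −5.05 and −4.61, but few counts in the H3.1 pair, with 1 and 2 in H3.1 against 1 and 1 in H3.1S28A for WRKY75 and 6, 17, 5 and 0 for WRKY51. WRKY33 was not called for the difference (0.33, adjusted p = 0.49), nor was WRKY70 (0.71, adjusted p = 0.062), although WRKY70 was called under 5 of the alternatives (adjusted p from 0.0071 to 0.0484).

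The kinases upstream of the WRKY proteins and the genes downstream of them were listed in 7 groups with 79 genes. The lists were chosen with earlier results of these data known and describe the surroundings of the family only. In the H3.3 pair 24 of 71 tested were higher and 16 lower, which is 56.3% against the 58.4% of all genes. Of 62 tested in the H3.1 pair, 8 were higher and 6 lower, or 22.6% against 13.5% of all genes.

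Among 13 kinases and VQ-motif partners tested in the H3.3 pair, 5 were higher and 1 lower, or 46.2% called against 58.4% of all genes. MPK3 (AT3G45640), the kinase that phosphorylates WRKY33, measured 39.2 and 39.5 CPM in H3.3 and 31.8 and 34.8 CPM in H3.3S28A and was not called (log2 fold change −0.24, adjusted p = 0.059). It was called lower under 5 of the alternatives in this pair (adjusted p from 0.0168 to 0.0489) and under 3 in the H3.1 pair (0.0388 to 0.0475). The kinase kinase genes MKK4 and MKK5 rose by 0.96 and 0.57 on the log2 scale (adjusted p = 7.5e-04 and 0.0025). SIB1 (AT3G56710), whose product binds WRKY33, rose from 3.94 and 7.08 CPM to 13.7 and 15.9 CPM in H3.3S28A (log2 fold change 1.42, adjusted p = 4.5e-04). In the H3.1 pair the same gene fell from 5.38 and 6.54 CPM to 3.25 and 2.67 CPM (log2 fold change −1.03, adjusted p = 0.011), so that its mutant libraries lay on opposite sides of their controls, although the fall was not called without H3.1 replicate 2 (adjusted p = 0.115). The difference between the pairs was called for SIB1 (−2.42, adjusted p = 2.1e-04). SIB2 (AT2G41180), its relative, fell by 0.57 on the log2 scale in the H3.1 pair (adjusted p = 0.038), a call lost with DESeq2 (0.0820) and on leaving out H3.1S28A replicate 1 or either H3.1 library (adjusted p from 0.120 to 0.162). SIB2 was called higher in the H3.3 pair (log2 fold change 0.45, adjusted p = 0.042), and its difference between the pairs was −0.99 (adjusted p = 0.0062). MKS1 (AT3G18690), a VQ protein that links MPK4 to WRKY33, had a log2 fold change of 0.50 in the H3.3 pair (adjusted p = 0.048), which turned to −0.11 with the span trend removed. The call of MKS1 was lost under 7 further alternatives and kept under 3, with adjusted p of 0.0587 with a replicate block, 0.0619 without the count filter and 0.143 with DESeq2.

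Known targets of WRKY33 did not move as a unit in the H3.3 pair. PAD3 (AT3G26830), which encodes the last enzyme of camalexin synthesis, had 0.449 and 0.256 CPM in H3.3 and 3.51 and 2.70 CPM in H3.3S28A (log2 fold change 3.12, SE 0.47, adjusted p = 2.0e-04). CYP71A13 (AT2G30770), of an earlier step of that route, measured 1.95 and 2.82 CPM against 8.95 and 15.2 CPM (log2 fold change 2.32, adjusted p = 5.4e-05), and CYP71A12 rose by 3.43 on the log2 scale (adjusted p = 1.2e-05). CYP71A12 and CYP71A13 are close copies of each other, so reads could have been split between them. All 3 camalexin genes were thus called higher, where 28.8% of all genes tested were, in the pair in which WRKY33 itself was called lower. PAD3, with 9 and 5 counts in H3.3, passed the count filter only through H3.3S28A, as did CYP71A12, with 23 and 9. Both could hardly have been called lower. All 4 genes of this list that were tested in the H3.3 pair were called, against 58.4% of all genes. The fall of WRKY33 leaned on H3.3 replicate 2, without which its log2 fold change was −0.34. ACS6 (AT4G11280), an ethylene synthesis gene, fell from 20.4 and 41.9 CPM to 6.23 and 4.60 CPM (log2 fold change −2.50, SE 0.30, adjusted p = 3.8e-05), and in the H3.1 pair it rose from 7.89 and 7.16 CPM to 12.8 and 14.7 CPM (log2 fold change 0.87, adjusted p = 0.0036), a rise not called when all 8 libraries were fitted together (adjusted p = 0.0539). Its difference between the pairs was 3.40 (adjusted p = 3.1e-05).

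In the salicylic acid list, 8 of 14 genes tested in the H3.3 pair were higher and 2 lower. The share called was 71.4%, against 58.4% of all genes, and in the H3.1 pair 16.7% against 13.5%. The defence marker PR1 measured 9.44 and 0.872 CPM in H3.3 and 359 and 109 CPM in H3.3S28A (log2 fold change 5.50, SE 0.68, adjusted p = 4.5e-05), with replicates far apart in both genotypes. PR1 did not pass the count filter in the H3.1 pair, where 1 library held nearly all of its counts, at 9.12 and 0.133 CPM in H3.1 against 0.141 and 0.297 CPM in H3.1S28A. PR2 (AT3G57260) measured 9.24 and 5.59 CPM against 95.2 and 58.1 CPM (log2 fold change 3.37, adjusted p = 1.2e-06), and PR5 9.44 and 5.95 CPM against 149 and 76.6 CPM (log2 fold change 3.88, adjusted p = 1.3e-06). NIMIN1 (AT1G02450), which encodes a protein that binds the salicylic acid receptor NPR1, rose by 3.93 on the log2 scale (adjusted p = 3.5e-04). It had 2 and 5 counts in H3.3 and passed the count filter only through H3.3S28A, so it could hardly have been called lower. EDS1 (AT3G48090), an upstream regulator of the pathway that is named after its values were seen, fell from 21.8 and 19.5 CPM to 9.21 and 5.63 CPM (log2 fold change −1.45, adjusted p = 8.8e-05). Of 12 tested in the H3.1 pair 2 were lower, PR2 from 7.94 and 8.94 CPM to 2.12 and 1.99 CPM (log2 fold change −2.04, adjusted p = 1.2e-04) and PR5 from 28.8 and 24.8 CPM to 7.41 and 11.5 CPM (log2 fold change −1.48, adjusted p = 2.4e-04). The difference between the pairs was called for both genes, at −5.39 for PR2 (adjusted p = 1.3e-06) and −5.32 for PR5 (adjusted p = 2.0e-06).

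Of the 19 early stress genes tested in the H3.3 pair, 5 were lower, 2 higher and 12 not called. The share called was 36.8%, against 58.4% of all genes, and in the H3.1 pair 12.5% against 13.5%. Of the genes higher in the H3.3 pair, FRK1 had 4 and 4 counts in H3.3. It passed the count filter only through H3.3S28A and could hardly have been called lower. SZF1 (AT3G55980), a zinc finger gene of the salt response, measured 25.9 and 58.0 CPM in H3.3 and 7.54 and 8.09 CPM in H3.3S28A (log2 fold change −2.43, adjusted p = 5.6e-05). CAF1a (AT3G44260), an RNA deadenylase gene, measured 10.98 and 31.1 CPM against 4.08 and 6.27 CPM (log2 fold change −2.05, adjusted p = 0.0012). H3.3 replicate 2 was again the highest library for both. PUB23 (AT2G35930), a ubiquitin ligase gene, fell by 1.70 on the log2 scale (adjusted p = 0.018), but was not called without H3.3 replicate 2 (−0.72, adjusted p = 0.349), and FRK1, a marker of flagellin signalling, rose by 2.59 on the log2 scale (adjusted p = 0.0048). ZAT12 (AT5G59820), a zinc finger gene induced by many stresses, was not called at 1.498 and 5.08 CPM in H3.3 and 3.61 and 3.57 CPM in H3.3S28A, but was called higher without H3.3 replicate 2 (log2 fold change 1.23, adjusted p = 0.0377). In the H3.1 pair 2 of 16 were higher, TCH4, a touch-induced cell wall gene, from 8.30 and 7.34 CPM to 42.8 and 36.6 CPM (log2 fold change 2.34, adjusted p = 5.9e-07) and NHL3 by 0.63 on the log2 scale (adjusted p = 0.0034). In the H3.3 pair TCH4 was called in the opposite direction, from 46.4 and 67.5 CPM to 20.2 and 19.6 CPM (log2 fold change −1.51, adjusted p = 1.4e-05), and its difference between the pairs was 3.88 (adjusted p = 5.5e-07).

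The senescence list, in which WRKY6, WRKY53, WRKY54, WRKY70 and WRKY75 are known to act, had 5 of 9 genes higher in each pair and 1 lower in the H3.3 pair. The share called was 66.7% in the H3.3 pair and 55.6% in the H3.1 pair, against 58.4% and 13.5% of all genes. SEN1 (AT4G35770) rose in both, from 6.07 and 8.09 CPM to 20.5 and 24.7 CPM in H3.1S28A (log2 fold change 1.68, adjusted p = 7.1e-05) and from 29.7 and 23.6 CPM to 52.4 and 46.4 CPM in H3.3S28A (log2 fold change 0.89, adjusted p = 1.1e-04). With the span trend removed, the H3.3 value was 0.47 (adjusted p = 0.0093). BFN1 (AT1G11190), a nuclease gene of senescence, rose by 1.28 in the H3.1 pair (adjusted p = 0.0083; 0.0699 without H3.1 replicate 1) and by 3.87 in the H3.3 pair (adjusted p = 5.5e-04), both on the log2 scale. SAG13 (AT2G29350) measured 1.10 and 0.513 CPM in H3.3 and 26.2 and 10.1 CPM in H3.3S28A (log2 fold change 4.50, adjusted p = 1.4e-05). In H3.1S28A its 19.7 CPM in replicate 1 stood against 0.594 CPM in replicate 2, and its log2 fold change of 3.302 (adjusted p = 0.042) turned to −0.70 without replicate 1. SAG29 (AT5G13170) had the same imbalance, at 4.59 and 0.509 CPM in H3.1S28A (log2 fold change 3.37, adjusted p = 0.023), and without replicate 1 it was not called (1.16, adjusted p = 0.479). H3.1S28A replicate 1 is also the library of that genotype with the higher sum of floral organ markers, whose part was not tested. NAP (AT1G69490), a senescence regulator, fell from 3.59 and 2.87 CPM to 0.628 and 0.476 CPM in the H3.3 pair (log2 fold change −2.51, adjusted p = 3.5e-04). With 12 and 6 counts in H3.3S28A, NAP passed the count filter only through H3.3 and could hardly have been called higher. BFN1, with 2 and 2 counts in H3.3, passed it in the H3.3 pair only through H3.3S28A. SAG29, with 4 and 6 counts in H3.1, passed it in the H3.1 pair only through H3.1S28A. Neither BFN1 nor SAG29 could well have been called lower there.

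Of the phosphate genes, 1 of 6 tested was higher and 2 were lower in the H3.3 pair, and 1 of 5 was lower in the H3.1 pair, shares of 50.0% and 20.0% against 58.4% and 13.5% of all genes. PHO1 (AT3G23430), the phosphate exporter gene that WRKY6 is known to repress, measured 19.4 and 19.9 CPM in H3.3 and 10.9 and 8.89 CPM in H3.3S28A (log2 fold change −0.98, adjusted p = 1.4e-04), but its log2 fold change was 0.02 with the span trend removed (adjusted p = 0.896). In the H3.1 pair, where WRKY6 was not called, PHO1 measured 13.8 and 19.6 CPM against 9.04 and 9.80 CPM (log2 fold change −0.82, adjusted p = 0.0087), and it was not called without H3.1 replicate 2 (−0.55, adjusted p = 0.131). SPX1 (AT5G20150), a sensor of phosphate supply, rose by 0.95 on the log2 scale in the H3.3 pair (adjusted p = 1.7e-04), or by 0.51 with the span trend removed (adjusted p = 0.0087). SQD2 (AT5G01220), a lipid synthesis gene of the phosphate response, fell by 0.45 on the log2 scale (adjusted p = 0.0040), a call lost with the span trend removed (−0.05, adjusted p = 0.737). The transporter genes PHT1;1 and PHT1;4 were not called in the H3.3 pair, with log2 fold changes of −0.38 and −0.25. PLDZ2 was not called either, at 0.60, and these genes are named after their values were seen.

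Of the 9 trichome and seed coat regulators listed, 6 were tested in the H3.3 pair, in which WRKY44 fell, and 4 of these were lower and none was higher. The share called was 66.7%, against 58.4% of all genes, of which 29.7% were lower. GL3 (AT5G41315), a basic helix-loop-helix factor of trichome initiation, measured 1.35 and 1.74 CPM in H3.3 and 0.157 and 0.159 CPM in H3.3S28A (log2 fold change −3.24, SE 0.63, adjusted p = 0.0011). With 3 and 2 counts in H3.3S28A, GL3 passed the count filter only through H3.3 and could hardly have been called higher. GL1 (AT3G27920), its MYB partner, measured 2.90 and 3.74 CPM against 0.837 and 1.27 CPM (log2 fold change −1.68, adjusted p = 0.0029). TT8 (AT4G09820), a regulator of seed coat pigment, fell by 2.25 on the log2 scale (adjusted p = 7.4e-04) and EGL3 by 1.31 (adjusted p = 0.0051), or by 0.87 with the span trend removed (adjusted p = 0.0412). TTG1 and GL2, which act in the same pathway, had log2 fold changes of 0.05 and −0.10 and were not called. In the H3.1 pair TT8 fell by 1.64 on the log2 scale (adjusted p = 0.018), a call lost with DESeq2 (0.0561) and without either H3.1 library (0.0764 and 0.162).

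All 26 WRKY loci outside the list were in the files, 9 of which could be tested in the H3.1 pair and 11 in the H3.3 pair. In the H3.1 pair 0 of 9 were called, where 13.5% of all genes were. In the H3.3 pair 4 of 11 were higher and 3 lower, where 58.4% of all genes were called in either direction, by edgeR's quasi-likelihood test at adjusted p under 0.05, and they are named after their values were seen. WRKY12, WRKY58 and WRKY42 rose by 1.98, 1.71 and 2.12 on the log2 scale, and WRKY63, listed as ABO3, was called with at most 13 counts in a library. WRKY42 belongs to group IIb and, like WRKY6, is known to repress PHO1. WRKY19 (AT4G12020), TTR1 (AT5G45050) and RRS1 (AT5G45260), whose products join a WRKY domain to parts of an immune receptor, had log2 fold changes of −1.81, −1.23 and −1.53. These genes span 8171, 5080 and 6718 bp, longer than any member of the list, and the part of gene span in their calls was not tested.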

How the data were processed

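The authors deposited raw counts per gene in 2 tables, 1 for each pair of genotypes, with 27416 genes each. The submitters' processing notes list the tools HISAT2, Subread and DESeq2 and the build TAIR10. The sources used here give no tool version, annotation or strand setting. Columns were matched to samples by name, with the H3.1 columns read as replicates 1 and 2 of H3.1. The 30 chromatin immunoprecipitation libraries are not analysed here.

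Each pair was tested within its own table, over all genes, by the quasi-likelihood F test of edgeR 4.0.16 under R 4.3.3 (TMM factors, filterByExpr by genotype with a minimum count of 10, Benjamini-Hochberg adjustment, threshold 0.05). The difference between the pairs is the interaction contrast over all 8 libraries. A gene under the count filter in 1 genotype of a pair passed it only through the other, so its call could hardly go the other way. Standard errors (SE) divide the log2 fold change by the root of F. The fits were run on simulated counts with known changes in a small share of the genes. In the H3.3 pair 58.4% of all genes were called, so that run does not measure false calls there. Single-gene CPM are TMM-scaled within a pair, with n = 2 libraries, and sums are CPM of the library total. Since the tables were scaled separately, levels in one pair set beside the other compare libraries of separate tables. Where a genotype had 1 to 3 counts, a depth-scaled ratio is given, and intervals and floors cover counting error only. Counts are not scaled for gene length, so levels of different genes are not compared.

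Named were every WRKY gene called in a pair or for the difference, WRKY14, WRKY33, WRKY40, WRKY53 and WRKY70 in any case, the 5 largest changes per pair, the gene with the most counts per group, up to 4 called genes per pathway list and pair, and PR1, PAD3, MPK3 and ZAT12. The members and lists were chosen with earlier results of these data known. Alternatives were RLE size factors, no count filter, DESeq2 1.42.0, all 8 libraries in 1 fit, a replicate block, counts without organelle genes and AT2G01021, removal of the trend of fold change with gene span (lowess, span 0.3; spans from RefSeq for 26719 genes), and leaving out each library in turn.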

Additional observations from a re-analysis of the deposited data

Results flagged for a closer look

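The effect of S28A differed between the H3.1 and the H3.3 pair, by the interaction contrast in edgeR's quasi-likelihood test (Benjamini-Hochberg adjusted p under 0.05), for 18 WRKY genes. Each value is the log2 fold change of the H3.1 pair minus that of the H3.3 pair. In group I it was 1.32 for WRKY1, 1.20 for WRKY44, 1.08 for WRKY32, 0.89 for WRKY20 and −1.13 for WRKY26. In group IIa it was 2.44 for WRKY40 and −1.46 for WRKY60, and in group IIb −2.30 for WRKY6 and −1.41 for WRKY47. Group IIc gave −1.41 for WRKY45, −4.61 for WRKY51 and −5.05 for WRKY75, and group IId −0.96 for WRKY7 and −1.17 for WRKY15. Group IIe gave −2.40 for WRKY14 and −3.49 for WRKY35, and group III −2.21 for WRKY54 and −1.56 for WRKY53. The calls of WRKY75 and WRKY53 were lost under 10 and 8 of the alternatives, that of WRKY75 also with a replicate block (adjusted p = 0.0713). Between the genotypes of these pairs the floral organ markers moved as well, with a summed 167 and 160 CPM in H3.3S28A, and their part in these differences was not tested.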

How the results depend on the processing

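Of the WRKY calls, 14 of 25 in the H3.3 pair, 7 of 18 for the difference and 0 of 2 in the H3.1 pair held under every alternative that gave a value, which for WRKY30 excludes leaving out either H3.3S28A library. WRKY calls in the H3.1 pair numbered 4 without the count filter, 1 with DESeq2 and 0 to 5 with 1 library left out. Those for the difference numbered 10 to 18 with 1 library left out, 10 of them without H3.3 replicate 2. Pathway calls in the H3.1 pair numbered 9 with DESeq2 and 8 to 18 with 1 library left out. The median WRKY log2 fold change was −0.26 to −0.15 in the H3.1 pair and 0.31 to 0.54 in the H3.3 pair with 1 library left out, and 0.50 in the H3.3 pair without the count filter. With the span trend removed, 24 WRKY genes were called in the H3.3 pair, 20 of them shared, and uncalled values changed sign for WRKY14 (0.12) and ZAT12 (−0.48), as did called ones for MKS1 (−0.11) and PHO1 (0.023). With 1 library left out, signs turned for WRKY70 (−0.10 to 0.40) and SAG13 (−0.70 to 4.34) in the H3.1 pair, for WRKY14 (−0.82 to 0.28) and ZAT12 (−0.53 to 1.23) in the H3.3 pair, and for WRKY33 in the difference (−0.18 to 0.71). The cause was not tested. Same-numbered replicates did not deviate together (correlations over genes −0.01 and 0.03), so the numbers are not taken to pair the samples, and with a replicate block 2, 25 and 17 WRKY genes were called in the H3.1 pair, the H3.3 pair and the difference. A library left out leaves 1 library in a genotype, assumed to vary like the others. With 2 libraries per genotype, a missed threshold does not show that a gene did not change.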
